A study of Mus musculus with 4 samples.

Results

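LIM homeobox genes and the cofactors of their proteins were followed through 4 RNA sequencing libraries of mouse forelimb buds at E11.5, made with and without conditional knockout of Smarcc1. The set holds 10 of the 35689 genes in the table: the LIM homeobox genes Lhx2, Lhx9, Lmx1b and Lmx1a, the LIM-binding genes Ldb1 and Ldb2, the LIM-only genes Lmo1, Lmo2 and Lmo4, and Ssbp2. They were chosen by name, with their levels in knockout and control libraries already known, so the difference between the genotypes in these 10 genes is a description, and no p-value is given for it. The rest of the LIM homeobox, Lmo and Ssbp families, which the choice left out, was tested where levels allowed it.

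A LIM homeodomain protein binds DNA through its homeodomain and other proteins through a pair of LIM domains. Ldb proteins dimerise and hold LIM domains together, Ssbp proteins bind Ldb proteins and protect them from breakdown, and Lmo proteins carry LIM domains without a homeodomain and compete for the same Ldb proteins. In the limb bud Lhx2 and Lhx9 are known from distal mesenchyme, where they take part in outgrowth driven by the apical ridge and by Shh, and Lmx1b is the dorsal mesenchymal factor induced by Wnt7a from dorsal ectoderm.

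Knockout embryos were PrxCre/+;Smarcc1c/c, with Cre active in limb bud mesenchyme, and controls were Prx+/+;Smarcc1c/c, so both genotypes carried the conditional allele of Smarcc1, a core subunit gene of the BAF chromatin remodelling complex. Each genotype had 2 libraries, each from the forelimb pair of an individual embryo, with 40 somites in the first and 39 in the other. Below, values in a genotype are given with the 40-somite embryo first. Levels are TPM, an abundance scaled for transcript length, so they can be set side by side between genes. The whole bud also holds ectoderm, blood and endothelium, in which this Cre is not expected to act, and fewer cells of a type cannot be told apart from less RNA per cell.

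Smarcc1 itself was at 46.2 and 38.4 TPM in knockouts, against 112 and 120 TPM in controls. The table holds no depth, and between 12555 and 12689 genes reached 1 TPM in each library. All 7 limb mesenchyme markers were present, with a summed level of 638 and 726 TPM in knockouts, against 605 and 721 TPM in controls. Within that sum Pdgfra rose (161.8 and 173.4 TPM in knockouts, 79.5 and 84 TPM in controls; limma, Benjamini-Hochberg adjusted p = 0.0165), while Prrx1 stood at 129.9 and 139.8 against 188.2 and 201.1 TPM (adjusted p = 0.101 in limma, or 0.0293 with somite stage in the model). Ddx3y, on the Y chromosome, gave 0.0498 and 28.3 TPM in knockouts, against 0.013 and 30.2 TPM in controls, so each genotype had both sexes, split as the somite stages were.

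Lhx2 and Lhx9 were lower in the knockout forelimbs, while Lmx1b was higher. Lhx2 (ENSMUSG00000000247, chromosome 2, 38339281 to 38369733 on mm10) was at 8.26 and 10.6 TPM in knockouts, against 32.4 and 49.2 TPM in controls. Both knockout values lay far below both controls, at 0.232 of the control mean, and the log2 fold change reached -1.98 ± 0.22 (SE, n = 2 embryos each, on the log2(TPM + 1) scale, as are all fold changes here). Lhx9 (ENSMUSG00000019230, chromosome 1, 138825186 to 138848577) was at 32.4 and 33.2 TPM in knockouts, against 68.7 and 105.1 TPM in controls. The knockout values nearly coincided while the controls were spread apart, and the fold change was -1.35 ± 0.20 (SE, n = 2). The difference for Lhx9 was -1.06 between the 40-somite embryos and -1.63 between the 39-somite embryos, and that for Lhx2 was -1.85 and -2.11.

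Lmx1b (ENSMUSG00000038765, chromosome 2, 33560965 to 33640511) was at 43.9 and 54.5 TPM in knockouts, against 25.6 and 31.6 TPM in controls. The groups did not overlap, the fold change was 0.76 ± 0.16 (SE, n = 2), and the difference was 0.75 between the 40-somite embryos and 0.77 between the 39-somite embryos. Lmx1a, its close relative (ENSMUSG00000026686, chromosome 1, 167689237 to 167848741), is known mainly from the roof plate and the midbrain. It stayed below 1 TPM in every library, at 0.526 and 0.622 in knockouts and 0.395 and 0.672 in controls, with overlapping groups, and did not enter the fit.

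**Figure D1:**
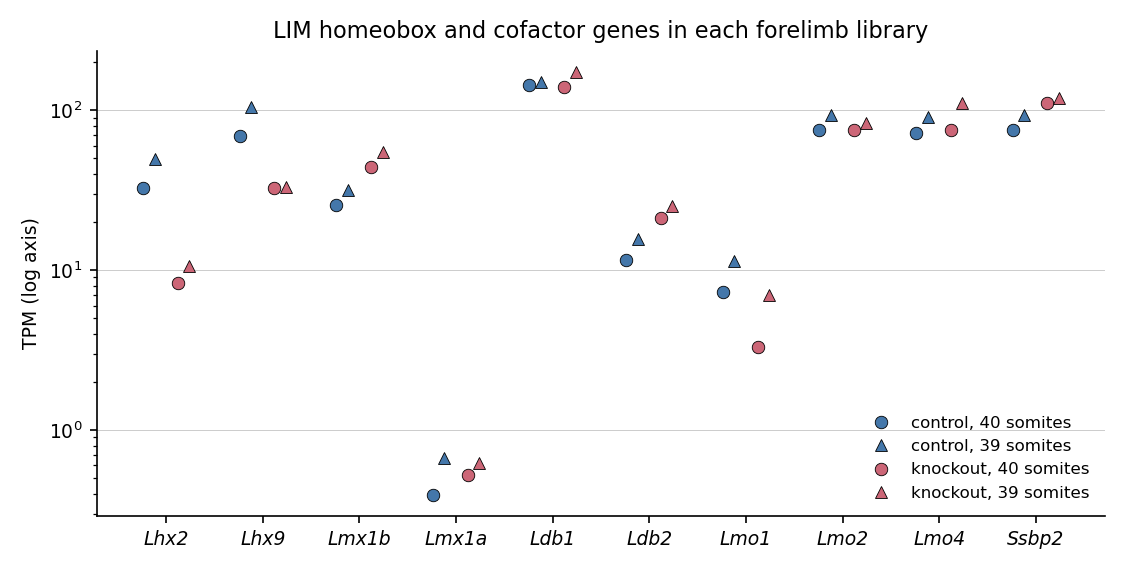
TPM of the 10 genes on a log axis, each point 1 library, with controls in blue, knockouts in red, 40 somites as circles and 39 somites as triangles. Lhx2, Lhx9 and Lmo1 lie lower in both knockouts than in both controls, Lmx1b, Ldb2 and Ssbp2 lie higher, and the other 4 overlap.

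Of the 9 members that passed the filter on low values, 2, Lhx2 and Lhx9, were among the genes that limma called lower over all genes at a Benjamini-Hochberg adjusted 0.05, and 0 among those called higher. Of all 12809 tested genes 1.3% were called (167 genes, 0.812% higher and 0.492% lower), and since the members were chosen on this contrast these calls are a description and nothing is read from their count. In 6 of the 9 the knockouts did not overlap the controls, 3 above and 3 below, beside 43.9% of all tested genes (22.7% above and 21.2% below). The median log2 fold change of the 9 was 0.09, beside 0.01 over all tested genes. Lhx9 was not among the called genes under quantile normalization, without the variance trend or without control replicate 2, and its fold change was -1.04 without that library. With no filter on low values limma called 0 members and 0 of all 20946 genes. With somite stage in the model Lmx1b, Ldb2 and Lmo1 were called beside Lhx2 and Lhx9, for 5 in all. In that model 533 of all 12809 tested genes were called.

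With Lhx2 and Lhx9 lower and Lmx1b higher in both knockouts than in both controls, the genes took other shares of the LIM homeobox transcripts. The summed level of all 12 LIM homeobox genes was 94.3 and 103.4 TPM in knockouts, against 132.5 and 190.9 TPM in controls. Lmx1b made up 46.5% and 52.7% of that sum in the knockouts, and 19.4% and 16.5% in the controls. The share of Lhx9 was 34.4% and 32.1% against 51.9% and 55%, and that of Lhx2 was 8.76% and 10.3% against 24.5% and 25.8%. For every unit of Lmx1b there were 0.928 and 0.805 units of Lhx2 and Lhx9 together in the knockouts and 3.95 and 4.88 in the controls. Lhx9 exceeded Lhx2 by 3.93 and 3.12 times in the knockouts and 2.12 and 2.14 times in the controls, so Lhx2 was the smaller of the pair in every library, and by a wider margin in the knockouts. These shares follow from the levels above and carry no test.

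**Figure D2:**
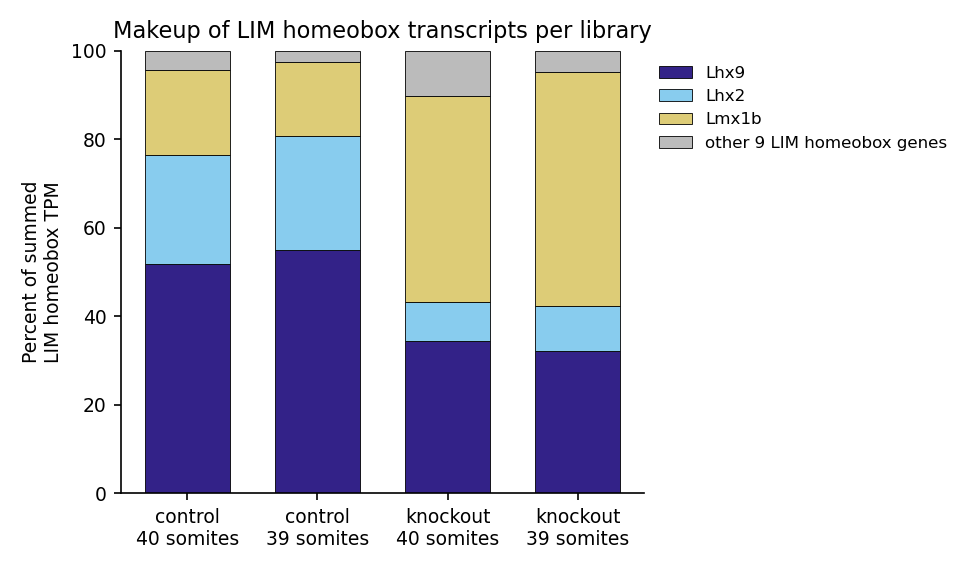
Share of each gene in the summed TPM of the 12 LIM homeobox genes, in percent, with 1 bar per library. Lhx9 is the largest part in both controls and Lmx1b in both knockouts, at 46.5% and 52.7%.

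The stretches before the starts of these 3 genes are shown because Lhx2 and Lhx9 lay lower, and Lmx1b higher, in both knockouts than in both controls. RefSeq promoter windows on GRCm38.p6, the mm10 build, were found for 8 of the 10 genes, in 14 windows, some of them overlapping, and not for Ldb2 and Lmo2. Printed are the 250 bases upstream of the start, 5′ to 3′ on the gene's strand, with capitals marking CCAAT or its reverse complement ATTGG. The window of Lhx2 is chr2:38339031-38339280 on the plus strand, that of Lhx9 is chr1:138842445-138842694 and that of Lmx1b is chr2:33641099-33641348, both on the minus strand. The Lhx9 start lies inside the annotated GENCODE gene, and the bases after the Lmx1b start were not found in a GENCODE transcript.
Lhx2: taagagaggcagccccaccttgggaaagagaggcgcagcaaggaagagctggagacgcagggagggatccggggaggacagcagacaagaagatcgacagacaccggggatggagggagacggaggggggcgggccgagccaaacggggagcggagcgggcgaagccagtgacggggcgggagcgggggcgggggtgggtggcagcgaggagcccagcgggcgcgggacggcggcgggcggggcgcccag
Lhx9: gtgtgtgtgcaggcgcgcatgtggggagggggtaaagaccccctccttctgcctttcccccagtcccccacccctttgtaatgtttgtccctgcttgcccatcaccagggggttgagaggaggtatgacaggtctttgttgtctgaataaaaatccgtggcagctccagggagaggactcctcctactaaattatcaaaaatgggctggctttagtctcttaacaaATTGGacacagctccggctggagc
Lmx1b: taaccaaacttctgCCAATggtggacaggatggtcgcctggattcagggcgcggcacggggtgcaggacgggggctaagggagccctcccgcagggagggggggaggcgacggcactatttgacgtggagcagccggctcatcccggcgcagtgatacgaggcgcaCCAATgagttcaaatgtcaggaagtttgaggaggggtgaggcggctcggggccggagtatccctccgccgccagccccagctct

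The Lhx2 window was 72.8% G and C with 25 CpG dinucleotides, the Lhx9 window 53.6% with 4, and the Lmx1b window 65.2% with 19, beside a median of 52.4% and 6 over all 32851 promoter windows. The letters CCAAT, on either strand, were in the Lhx9 and Lmx1b windows and not in the Lhx2 window shown, and 33.8% of all windows hold them. TAATTA, the core recognised by many homeodomains, was in 0 of these 3 windows and in both windows of Lmo1, beside 4.84% of all windows. The windows of Lmo1 overlap, and the match is the same site in both. The GLI core GACCACCCA, on either strand, was in 0 of the 14 windows, beside 0.225% of all windows. These matches describe the letters only.

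The Ldb genes split into a level one and a higher one. Ldb1 (ENSMUSG00000025223, chromosome 19, 46031570 to 46045214), the main bridging cofactor, was at 140.3 and 173.6 TPM in knockouts, against 143.5 and 150.2 TPM in controls. The groups overlapped, and its fold change of 0.09 ± 0.13 (SE, n = 2) was below its error. Ldb2 (ENSMUSG00000039706, chromosome 5, 44472132 to 44799680), its less abundant paralog, was at 21 and 25.1 TPM in knockouts, against 11.6 and 15.6 TPM in controls. Both knockouts lay above both controls, with a fold change of 0.73 ± 0.17 (SE, n = 2). Ldb2 made up 13% and 12.6% of Ldb transcripts in the knockouts and 7.49% and 9.4% in the controls. The first bases of Ldb1 overlap Pprc1 on the opposite strand, which was at 36.2 and 29.1 TPM in knockouts, against 31.4 and 40.2 TPM in controls. Whether strand was used in the quantification is not given in the sources used here, so reads in that overlap cannot be assigned.

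Ssbp2 (ENSMUSG00000003992, chromosome 13, 91460283 to 91703429), which binds and stabilises Ldb proteins, was at 111.5 and 119.6 TPM in knockouts, against 74.8 and 92.8 TPM in controls. Both knockouts were higher than both controls, and the fold change was 0.47 ± 0.14 (SE, n = 2). Its paralogs were no part of the choice and were tested. Ssbp3 was at 145.6 and 172.2 TPM in knockouts, against 164.3 and 192.7 TPM in controls, with a fold change of -0.17 ± 0.14 (SE; 95% interval -0.50 to 0.17), and Ssbp4 at 99.4 and 127.7 against 76.1 and 103.3 TPM, with 0.34 ± 0.19 (-0.12 to 0.80). Neither passed over all genes (limma, Benjamini-Hochberg adjusted p = 0.682 and 0.515), and the groups overlapped in both. Ssbp2 was 31.3% and 28.5% of Ssbp transcripts in the knockouts and 23.7% and 23.9% in the controls.

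Among the LIM-only genes Lmo1 was lower and Lmo2 and Lmo4 overlapped. Lmo1 (ENSMUSG00000036111, chromosome 7, 109138572 to 109175207) was at 3.32 and 6.96 TPM in knockouts, against 7.29 and 11.4 TPM in controls. The 39-somite knockout was close to the 40-somite control, and the fold change was -0.79 ± 0.33 (SE, n = 2), -0.35 without knockout replicate 1 and -1.23 without knockout replicate 2. Lmo4 (ENSMUSG00000028266, chromosome 3, 144188530 to 144205220), a broadly expressed LIM-only gene, was at 75.7 and 111.7 TPM in knockouts, against 72 and 91 TPM in controls. The 2 embryos of a genotype differed more than the genotypes did, and the fold change was 0.18 ± 0.21 (SE, n = 2), or -0.096 without knockout replicate 2.

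Lmo2 (ENSMUSG00000032698, chromosome 2, 103957986 to 103981878), known for its role with Tal1 and GATA factors in blood and endothelial cells, was at 75.7 and 82.6 TPM in knockouts, against 75.4 and 92.7 TPM in controls. The 40-somite embryos were level and the fold change was -0.08 ± 0.13 (SE, n = 2). Of the 11 tested partners of Lmo2 0 rose and 0 fell in limma, beside 0.812% and 0.492% of all tested genes. At an unadjusted p under 0.05 in limma 1 was higher, Tcf12, beside 6.78% of all. The median of the 11 was 0.21, beside 0.01 over all tested genes. Tcf12, an E protein gene, was at 191.4 and 228.2 TPM in knockouts, against 154.8 and 159.1 TPM in controls (0.41 ± 0.12, SE; limma, Benjamini-Hochberg adjusted p = 0.225). Gata1, the erythroid factor gene, stood at 1.5 and 2.19 against 0.623 and 1.83 TPM, and the corepressor gene Cbfa2t3 at 2.82 and 1.78 against 2.64 and 3.86 TPM. The 8 endothelial markers summed to 54.9 and 79.7 TPM in knockouts, against 42.5 and 83.2 TPM in controls, and the 8 erythroid markers to 10451 and 9839 against 8984 and 8944 TPM. Their part in the level of Lmo2 was not tested.

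The sums of the classes were set against each other. The 4 Lmo genes summed to 0.969 and 1.02 times the Ldb sum in the knockouts and 1.01 and 1.19 times in the controls, and the 3 Ssbp genes to 2.21 and 2.11 times against 2.03 and 2.35 times, with overlapping groups in both. The 12 LIM homeobox genes summed to 0.584 and 0.52 of the Ldb sum in the knockouts and 0.854 and 1.15 in the controls, and these groups did not overlap. These ratios are descriptions of transcript levels and carry no test.

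By mean TPM over the controls the order of the 10 members was Ldb1, Lhx9, Lmo2, Ssbp2, Lmo4, Lhx2, Lmx1b, Ldb2, Lmo1 and Lmx1a. Lhx9, Lmo2, Ssbp2 and Lmo4 overlapped one another there, between 68.7 and 105.1 TPM. In the knockouts the order was Ldb1, Ssbp2, Lmo4, Lmo2, Lmx1b, Lhx9, Ldb2, Lhx2, Lmo1 and Lmx1a, so Lhx9 went from the second place to the sixth and Lmx1b moved above both Lhx genes. Ssbp2 and Lmo4, and Lmo4 and Lmo2, were neighbours whose values overlapped in the knockouts.

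The other 8 LIM homeobox genes were scarce in these buds. Lhx8, best known from the forebrain and from craniofacial mesenchyme, was at 3.75 and 1.85 TPM in knockouts, against 0.241 and 0.12 TPM in controls. It passed the filter only through the knockout libraries, where it was high, so its fold change of 1.64 ± 0.27 (SE, n = 2) is given with no p-value and no call is read from it. Isl2, a gene of motor and sensory neurons, was at 3.86 and 1.22 TPM in knockouts, against 3.94 and 3.46 TPM in controls (-0.51 ± 0.36, SE; limma, Benjamini-Hochberg adjusted p = 0.612). Only the 39-somite knockout stood apart there, and the fold change was 0.05 without it. Isl1, a gene of motor neurons and of early hindlimb mesenchyme, was at 1.09 and 0.8 TPM in knockouts, against 0.728 and 0.374 TPM in controls and was not tested. Lhx1 and Lhx6 stayed at or below 0.403 TPM and Lhx3 and Lhx4 at or below 0.019 TPM in all 4 libraries, and Lhx5 was listed at 0 in all 4. Of the 4 motor neuron markers Chat was listed at 0 in every library, and the list summed to between 6.04 and 8.01 TPM. The 5 sensory neuron markers summed to 20.5 and 11.3 TPM in knockouts, against 1.14 and 1.57 TPM in controls. Nearly all of that was Pou4f1, a sensory neuron factor gene, which rose from 1.03 and 1.16 TPM to 20.1 and 11.1 TPM (2.93 ± 0.27, SE; limma, Benjamini-Hochberg adjusted p = 0.0119). Of the 8 markers of neurons in general 4 were tested and 1, Dcx, rose, beside 0.812% of all tested genes. Dcx went from 7.79 and 9.8 TPM in controls to 18.5 and 23 TPM in knockouts (1.15 ± 0.17, SE, limma adjusted p = 0.0409). The other 3 tested markers lay below 0, and the median of the list was -0.03. Among them Tubb3 was at 7.2 and 7.42 TPM in knockouts, against 8.49 and 9.54 TPM in controls. The part of neurons in the levels of Lhx8, Isl1 and Isl2 was not tested.

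The remaining nuclear cofactors did not pass. Lmo3, a LIM-only gene of the nervous system, was at 1.72 and 1.34 TPM in knockouts, against 1.41 and 1.47 TPM in controls (0.05 ± 0.17, SE; 95% interval -0.37 to 0.46). Rlim, an X-linked gene for a ubiquitin ligase that acts on Ldb proteins and their partners, was at 26.7 and 30.7 TPM in knockouts, against 27.7 and 30.7 TPM in controls (-0.03 ± 0.13, SE; 95% interval -0.33 to 0.28). Limma gave Benjamini-Hochberg adjusted p-values of 0.942 and 0.961. Of these 4 genes, with Ssbp3 and Ssbp4, 0 passed and 0 had an unadjusted p under 0.05 in limma.

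**Figure D3:**
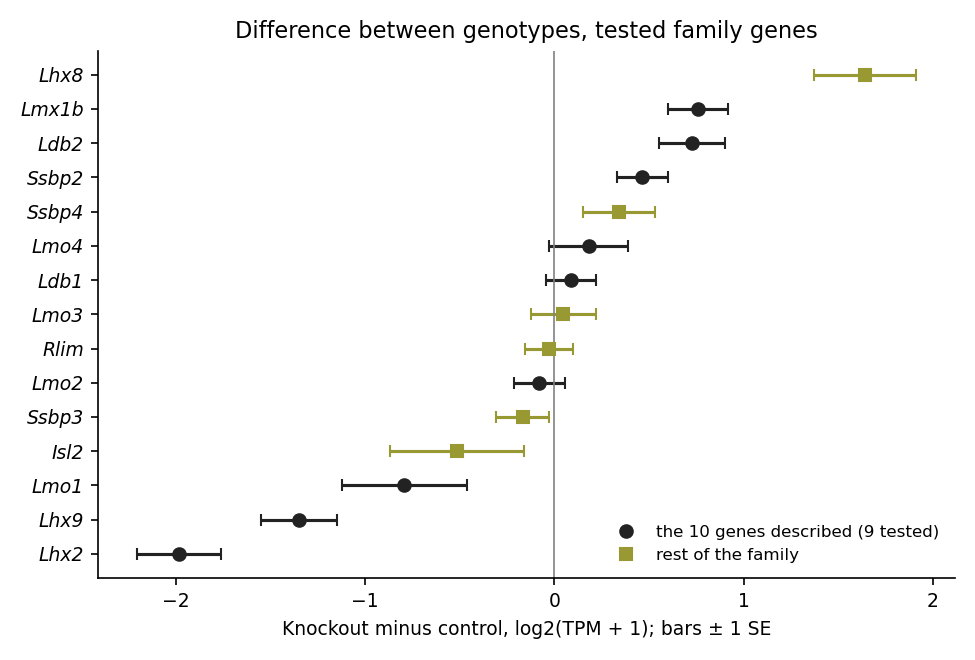
Log2 fold change, knockout minus control on the log2(TPM + 1) scale, for the 9 members (black circles) and 6 other family genes (green squares) that passed the filter, with bars of 1 SE from limma and n = 2 per genotype. Lhx2 and Lhx9 lie farthest below 0 and Lhx8 and Lmx1b farthest above it.

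Genes that share only the LIM domain lay more often below 0 than above it. Of 31 tested genes for LIM-domain proteins of adhesions and the cytoskeleton 0 rose and 0 fell over all genes in limma. An unadjusted p under 0.05 was reached by 7 lower and 0 higher genes, beside 6.89% and 6.78% of all tested genes. Their median was -0.17, beside 0.01 over all tested genes. Of the 31, 21 lay below 0, beside 6179 of all 12809 tested genes. Csrp2, a cysteine- and glycine-rich LIM protein gene, was at 126.4 and 151.8 TPM in knockouts, against 218.6 and 209.7 TPM in controls (-0.62 ± 0.13, SE). Tes, a focal adhesion gene, stood at 46.3 and 43.6 against 62.3 and 62.6 TPM (-0.47 ± 0.10), and Pdlim5 at 5.47 and 5.69 against 8.33 and 11.8 TPM (-0.73 ± 0.18). Limma gave Benjamini-Hochberg adjusted p-values of 0.0979, 0.121 and 0.162 for these 3. With somite stage in the model 3 of the 31 were called lower, Csrp2 and Tes among them (limma adjusted p = 0.0452 and 0.041). Of all 12809 tested genes 267 were called lower in that model.

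Upstream of Lmx1b, the gene for its inducer Wnt7a, named after its values were seen, was at 8.74 and 6.61 TPM in knockouts, against 10.8 and 7.48 TPM in controls (-0.22 ± 0.21, SE; 95% interval -0.73 to 0.30; limma, Benjamini-Hochberg adjusted p = 0.746). The dorsoventral axis list has 8 genes, of which 0 rose and 1, the ridge gene Sp6, fell, beside 0.812% and 0.492% of all tested genes. An unadjusted p under 0.05 was reached by 3 lower genes, beside 6.89% of all. Sp6 fell from 26.4 and 21.6 TPM to 9.67 and 7.29 TPM. En1, which keeps Wnt7a out of ventral ectoderm, stood at 3.54 and 2.46 TPM against 9.65 and 7.22 TPM (-1.24 ± 0.21, SE; limma, Benjamini-Hochberg adjusted p = 0.0589, or 0.0175 with somite stage in the model, where it was called). Bmp7 stood at 20.9 and 19.8 against 26.2 and 27.1 TPM. The 10 surface ectoderm markers summed to 476 and 299 TPM in knockouts, against 605 and 396 TPM in controls, and 10 of 10 lay below 0. Their part in these ectodermal genes was not tested.

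In the loop of ridge FGF and Shh signals in which Lhx2, Lhx9 and Lmx1b are known to act, Fgf8 and Shh fell and 0 of 16 genes rose, beside 0.492% called lower and 0.812% called higher among all tested genes. Fgf8 was at 53.7 and 45.6 TPM in knockouts, against 115.8 and 98.2 TPM in controls, and Shh at 4.59 and 6.38 against 17.5 and 14.6 TPM (-1.09 ± 0.14 and -1.41 ± 0.18 on the log2 scale, SE, n = 2; limma, Benjamini-Hochberg adjusted p = 0.0283 and 0.0319). The 10 surface ectoderm markers also lay below 0, and their part in the level of Fgf8, a ridge gene, was not tested. The Hedgehog target Gli1 was at 41.9 and 38.8 TPM in knockouts, against 29.5 and 29.7 TPM in controls (0.43 ± 0.11; limma adjusted p = 0.162). Fgf10, the mesenchymal FGF, named after its values were seen, stood at 8.93 and 10.6 against 8.34 and 10.8 TPM, with a 95% interval of the fold change from -0.39 to 0.44. The median of the list was -0.19, with an unadjusted p under 0.05 in limma for 5 lower and 2 higher genes, beside 6.89% and 6.78% of all. Fgf8, Shh and Sp6 were not called under median-ratio or quantile scaling or without control replicate 1 or 2.

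The genes whose pattern over the 4 libraries was most like that of each LIM homeobox gene were found by the Euclidean distance between log2(TPM + 1) values centred on their mean, among 11762 named protein-coding genes. Among the 5 nearest to Lhx2 were Msx1, Ifitm1, Rspo4 and Mogat2, at distances from 0.334 to 0.411. The homeobox gene Msx1 was at 27 and 27.8 TPM in knockouts, against 81.5 and 108.9 TPM in controls. Among the 5 nearest to Lhx9 were Cyp26b1, Apba2, Galnt5 and Cacna1h, at distances from 0.0927 to 0.23. Cyp26b1, which encodes the retinoic acid-degrading enzyme of distal limb, was at 35.2 and 39.2 TPM in knockouts, against 79.9 and 117.7 TPM in controls.

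Nearest to Lmx1b were Rab27a, Cd1d1, Boc, Alx1 and Capn6, at distances from 0.0495 to 0.0827. Ldb2 came in the seventh place for Lmx1b, at a distance of 0.0922. The Hedgehog co-receptor gene Boc was at 18.5 and 22.8 TPM in knockouts, against 10.8 and 13.9 TPM in controls, and Capn6 at 444 and 559 against 252 and 306 TPM. Lhx9 was the 17th gene for Lhx2, at 0.668, and Lhx2 the 122nd for Lhx9. With 4 libraries this likeness is mainly the size of the difference between the genotypes and the order of the embryos within them.

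The genes that flank the members on the chromosome were read as well. The nearest tested protein-coding genes beside Lhx2 were Dennd1a and Nek6, with log2 fold changes of -0.28 ± 0.16 and -0.30 ± 0.13 (SE), and beside Lmx1b Zbtb43 and Mvb12b, with 0.06 ± 0.16 and -0.15 ± 0.14. Beside Lhx9, 2310009B15Rik lay 3.41 kb away and was at 27.3 and 30.8 TPM in knockouts, against 40.3 and 41.1 TPM in controls (-0.48 ± 0.12), and Nek7 lay 205 kb away (-0.03 ± 0.15). Beside Ldb2 Tapt1 and Qdpr had 0.11 ± 0.13 and 0.27 ± 0.15. Limma called 0 of these 8, beside 1.3% of all tested genes. An unadjusted p under 0.05 in limma was reached by 1 of them, 2310009B15Rik, beside 13.7% of all. Its p was 0.006 in limma, or 0.15 with Benjamini-Hochberg adjustment. Both knockouts lay below both controls for Dennd1a, Nek6 and 2310009B15Rik and above them for Qdpr. The groups did not overlap in 43.9% of all tested genes. The neighbours were listed after the data had been seen, and a difference from the members was not tested.

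The difference between the embryos with 39 and 40 somites was not used in choosing the genes and was tested with genotype in the model. As deposited, 9 of the 9 tested members were higher at 39 somites in both genotypes, beside 53.6% of all tested genes. Their median difference, 39 minus 40 somites, was 0.32, beside 0.10 over all genes. Lmo1 had the largest, 0.73 ± 0.12 (SE; 95% interval 0.41 to 1.05), followed by Lhx2 with 0.46 ± 0.10 and Lmo4 with 0.44 ± 0.08. By limma 0 of the 9 passed over all genes, with Benjamini-Hochberg adjusted p-values from 0.16 to 0.278, where 0.164% of all genes were called, and 6 of the 9 had an unadjusted p under 0.05, all higher at 39, beside 17.7% of all genes that were higher and 3.89% that were lower by that measure. Under median-ratio and quantile scaling 7 of 9 were higher in both genotypes, beside 33.8% and 34.4% of all genes, and Lhx9 and Ldb1 were not. Scaling moved the median over all genes to 0.0075 and 0.012 and that of the members to 0.22 in both cases.

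Other values moved with stage as well. The 10 surface ectoderm markers were lower at 39 somites, 9 of them at an unadjusted p under 0.05 in limma, and the 8 endothelial markers were higher, 7 of them by that measure. The mitochondrial share of TPM was 10.1% and 7.58% in knockouts, against 9.91% and 8.05% in controls. Stage, sex and any other difference between these embryos cannot be told apart, and the part of cell makeup was not tested.

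**Figure D4:**
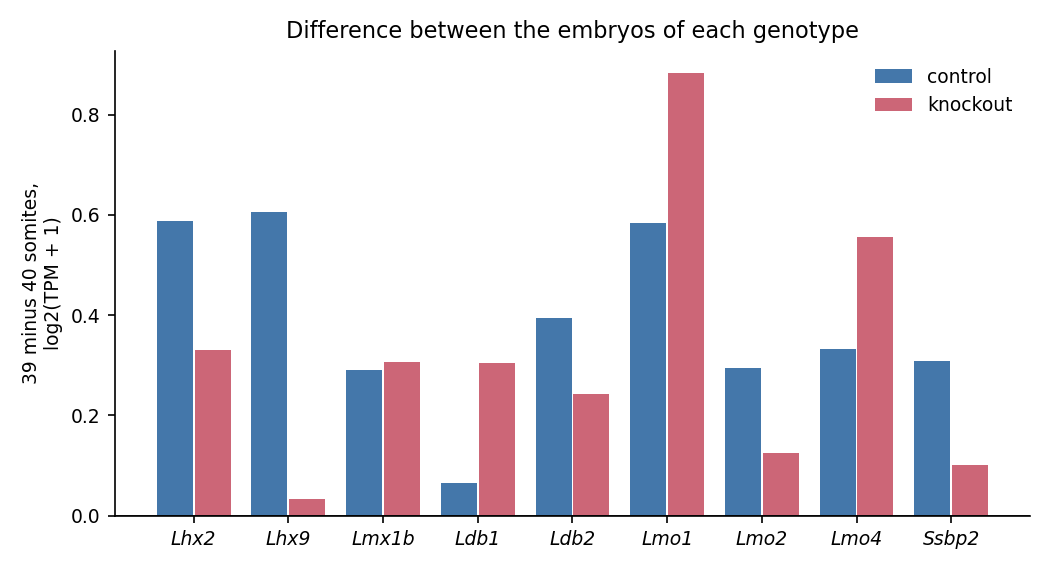
Difference in log2(TPM + 1) between the embryo with 39 somites and that with 40 somites, for the 9 tested members, with 1 bar per genotype and no error because each bar compares 2 libraries. All 18 bars lie above 0 as deposited, from 0.033 for Lhx9 in the knockouts to 0.88 for Lmo1 in the knockouts.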

How the data were processed

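RNA was measured in 4 libraries, 2 per genotype, of E11.5 mouse forelimb pairs. The authors deposited TPM values, and each column sums to 1000000. Salmon 1.9.0 and mm10 are named, per the submitters' processing notes. The transcript set and the strand setting are not stated there. Reads behind each value are unknown, so no count test was run, and precision rests on the spread between 2 embryos per genotype. Column names were matched to titles, 1 of them with an extra letter.

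Of 35727 identifiers 35422 were matched to symbols (99.1%), and 38 symbols found more than once were summed. The 12809 genes that reached 1 TPM in 2 or more libraries entered the test. Their log2(TPM + 1) values were fitted by limma 3.58.1 (R 4.3.3; eBayes with a mean-variance trend), adjusted by the Benjamini-Hochberg method at 0.05. The fit was run on simulated data with independent noise in each gene and no difference between stages or sexes. That run does not cover such differences in these data, and no result is drawn from it here. A two-sided exact permutation test of 2 against 2 cannot pass 0.05 and was not run.

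The members and lists were chosen with earlier results of these data known. Named are all members, Smarcc1, the rest of the family, in each other list up to 3 genes with the smallest p, and the 5 genes most like Lhx2, Lhx9 and Lmx1b, of which 1 for Lhx2 and 1 for Lhx9 are not reported here. Genes named outside this rule were chosen after their values were seen. Alternatives were other pseudocounts (0.1 and 5), filters (none, or TPM of 5), scalings, variance settings and a threshold of 0.1, somite stage as a block, and each library left out. Coordinates are GENCODE M21 on mm10, counted from 1.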

Additional observations from a re-analysis of the deposited data

Results flagged for a closer look

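In 13 of the members, family genes, neighbours and other listed genes the knockout minus control difference on the log2(TPM + 1) scale had opposite signs at 40 and at 39 somites. Of these 11 were tested genes. Opposite signs were found in 2 of the 9 tested members, beside 30.8% of all 12809 tested genes. The difference between the stages was not tested, since each genotype has 1 embryo per stage. Among the members these were Ldb1, with -0.032 at 40 somites and 0.21 at 39, Lmo2, with 0.0043 and -0.16, and Lmx1a, below 1 TPM, with 0.13 and -0.044. In the rest of the family Lmo3 had 0.17 and -0.077, Rlim -0.054 and 0.0023, and the scarce Lhx6 -0.26 and 0.11. Of the genes beside or overlapping a member Nek7 had 0.17 and -0.22, Tapt1 0.28 and -0.064, and Pprc1 0.20 and -0.45. Of the other listed genes Fgf10 had 0.089 and -0.032, Cbfa2t3 0.068 and -0.81, the myogenic gene Myf5 -0.014 and 0.73, and the muscle precursor gene Pax3 -0.0091 and 0.70.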

How the results depend on the processing

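Fold changes of Lhx2, Lhx9, Lmx1b, Ldb2, Lmo1 and Ssbp2 kept their sign with other pseudocounts, under both scalings and with each library left out. Over the 14 alternatives they ranged from -2.27 to -1.65 for Lhx2, -1.65 to -1.04 for Lhx9, 0.61 to 0.91 for Lmx1b, 0.53 to 0.93 for Ldb2, -1.23 to -0.35 for Lmo1 and 0.31 to 0.62 for Ssbp2. The filters, variance settings, stage block and threshold cannot move a fold change here, since they alter only the genes tested, the error or the cut-off. Fold changes of Ldb1, Lmo2 and Lmo4 each changed sign with 1 library left out. Over all genes, limma called 0 with no filter on low values (against 167), 533 with somite stage as a block, 275 with a robust variance, 316 at a threshold of 0.1, and 50 to 646 with a library left out. Of the members it called 0 with no filter, 1 under quantile normalization and 1 without the variance trend, 5 with the stage block, and 1 to 4 with a library left out (4 without knockout replicate 1, with Lmx1b and Ldb2 added, and 1, Lhx2, without control replicate 2). Over all 12809 tested genes it called 126 under quantile normalization and 196 without the variance trend. The members were chosen on this contrast, so their counts over these settings are a description and nothing is read from them. The other LIM homeobox genes gave 1 at a pseudocount of 0.1, with the stage block, without the trend, with a robust variance and at a threshold of 0.1. That gene was Lhx8 each time, which passed the filter only through the knockout libraries, so nothing is read from these counts. Other LIM-domain proteins gave 3 with the block, 1 at 0.1 and 0 to 2 with a library left out. The dorsoventral list gave 0 with no filter or under either scaling, 2 with the block, a robust variance or a threshold of 0.1, and 0 to 2 with a library left out. The FGF and Shh list gave 0 with no filter or under either scaling and 0 to 2 with a library left out. The cell type markers, of which Pdgfra, Dcx and Pou4f1 were called higher, gave 0 with no filter, 8 with the block and 1 to 10 with a library left out. Between 39 and 40 somites 0 genes passed with no filter and 12 under quantile normalization or without the trend, against 21, and leaving out a library leaves no residual degree of freedom there. With a library left out some small fold changes turned, and ranged from -1.08 to 0.050 for Isl2, -0.059 to 0.15 for Lmo3, -0.12 to 0.072 for Rlim, -0.00088 to 0.80 for Gata1, -0.032 to 0.89 for Pecam1, -0.18 to 0.87 for Kdr and -0.31 to 0.63 for Tie1. A fit with 1 library in a group assumes that it varies like the others. No paired analysis by replicate number was possible because the labels give no replicate numbers. Numbers 1 and 2 were given in accession order and coincide with 40 and 39 somites, so the stage block is also a block on them. Read depth is unknown, so its limit on low genes such as Lmx1a and Lhx8 cannot be given.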
